A study of Homo sapiens with 12 samples.

Results

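Replicate 2 of an androgen experiment in MDA-MB-453 cells is described here as 2 libraries, 1 treated with vehicle and 1 with dihydrotestosterone (DHT), of 12 libraries in all. They were picked by their replicate number and set against the 10 others, 5 per treatment, with the treatment kept as a covariate. MDA-MB-453 is an established human breast cancer line of an androgen-responsive luminal type, which has the growth factor receptor ERBB2 and lacks estrogen receptor alpha. After 72 h in DMEM with high glucose and 10% fetal bovine serum, the vehicle group received 0.001% ethanol and the DHT group 10 nM DHT, the most potent natural androgen, both for 6 h. All 12 libraries are of the same unmodified line, and per the labels' protocols the replicates came from consecutive passages. Replicate 2 was chosen because these 2 libraries stood apart in the same counts. Every difference between replicate 2 and the other replicates is therefore a description and has no p-value.

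The integrated stress response is the pathway by which cells slow translation and adapt when amino acids are short, proteins misfold or heme is lacking. Kinases phosphorylate the initiation factor eIF2, translation of the transcription factor ATF4 goes up, and ATF4 with its partners switches on genes for amino acid synthesis, amino acid uptake, tRNA charging and feedback. The hypoxia response works through the factor HIF-1, which turns on glycolytic enzymes, lactate production and the pH regulator CA9 when oxygen is low. Both are active in many cultured cancer cells. ATF4 binds CARE elements in promoters and HIF-1 binds hypoxia response elements.

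Promoter windows are shown for 5 genes of these pathways that were higher in both replicate 2 libraries, because CHAC1 and ATF3 had the 2 highest fitted log2 fold changes of all genes and SESN2 is a classic ATF4 target, while CA9 and PGK1 stand for the hypoxia and glycolysis list. Each is the 250 bases before the RefSeq start on the plus strand of GRCh38.p14, written 5′ to 3′. Capitals mark the letters TGATGNAA on either strand (the core of the CARE element) in the first 3 windows and ACGTG on either strand (the core of the hypoxia response element, which overlaps the E-box) in the last pair. The windows lie at chr15:40953221-40953470, chr1:212565157-212565406, chr1:28259268-28259517, chr9:35673678-35673927 and chrX:78103998-78104247.
CHAC1: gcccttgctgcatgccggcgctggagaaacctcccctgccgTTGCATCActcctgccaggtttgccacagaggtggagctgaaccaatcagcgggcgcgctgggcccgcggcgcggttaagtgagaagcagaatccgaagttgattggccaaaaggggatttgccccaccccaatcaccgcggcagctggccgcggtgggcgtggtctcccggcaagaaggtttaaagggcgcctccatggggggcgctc
ATF3: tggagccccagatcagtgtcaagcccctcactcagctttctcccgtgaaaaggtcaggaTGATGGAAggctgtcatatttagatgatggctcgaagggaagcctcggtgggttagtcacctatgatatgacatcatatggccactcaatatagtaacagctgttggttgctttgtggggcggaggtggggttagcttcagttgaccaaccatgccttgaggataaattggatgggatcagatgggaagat
SESN2: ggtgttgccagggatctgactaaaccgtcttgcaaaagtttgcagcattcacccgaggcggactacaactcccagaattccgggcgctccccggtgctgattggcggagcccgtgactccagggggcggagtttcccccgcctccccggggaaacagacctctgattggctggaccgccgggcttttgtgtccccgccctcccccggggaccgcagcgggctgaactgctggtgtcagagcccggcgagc
CA9: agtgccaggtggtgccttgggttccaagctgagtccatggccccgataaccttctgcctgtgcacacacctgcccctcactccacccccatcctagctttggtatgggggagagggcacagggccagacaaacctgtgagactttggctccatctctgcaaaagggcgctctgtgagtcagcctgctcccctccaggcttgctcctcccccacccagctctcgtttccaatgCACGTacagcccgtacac
PGK1: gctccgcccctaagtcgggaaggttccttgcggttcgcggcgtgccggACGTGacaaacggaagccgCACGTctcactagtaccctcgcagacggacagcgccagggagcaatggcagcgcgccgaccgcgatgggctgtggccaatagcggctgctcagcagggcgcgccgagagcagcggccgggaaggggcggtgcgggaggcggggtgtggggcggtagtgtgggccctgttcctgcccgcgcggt
The CHAC1 window held 1 match that starts 209 bases before the start, the ATF3 window 1 at 191 bases and the SESN2 window none. The windows of TRIB3 and PHGDH, which were also higher and are not printed, held none either, so 2 of 5 stress genes searched one by one had a match. The CA9 window held 1 match of the hypoxia core at 18 bases and the PGK1 window 2, at 202 and 183 bases. A match is a description of letters and no binding was measured. Of 27305 promoter windows in the RefSeq table, 3.19% held the CARE letters and 18.7% the hypoxia letters. Among the 10327 windows of genes tested here the shares were 1.35% and 23.9%, and among the 489 windows of genes set apart as higher in replicate 2 they were 1.02% and 24.1%. For genes set apart as higher with offsets for GC content and length, explained below, 5 of 153 windows held the CARE letters (3.27%). The hypoxia letters were in 30 of those 153 (19.6%). Nothing is read from 5 windows. The CARE letters were in 2 of 14 windows of the stress response regulators (14.3%), 2 of 12 of the effectors (16.7%), 3 of 9 of the amino acid synthesis list (33.3%) and 1 of 25 of the hypoxia and glycolysis list (4.0%). The hypoxia letters were in 2 of 14, 3 of 12, 4 of 9 (44.4%) and 12 of 25 (48.0%) of the same windows, so the synthesis and the hypoxia lists held them at about the same share.

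Both replicate 2 libraries stood far from the other 10. On the first principal component of log2 CPM (counts scaled to the library size), which held 51.1% of the variance, Vehicle replicate 2 scored 83.8 and DHT replicate 2 scored 77.4. The next library was Vehicle replicate 5 at 23.3, and the other 9 lay between -32.3 and -6.02. The libraries held from 4345939 to 25678380 counts, 16963476 in Vehicle replicate 2 and 25678380 in DHT replicate 2. The replicate 2 totals were the highest, with DHT replicate 3 next at 16893741. Thinned to equal depth, replicate 2 showed 20017 and 19790 genes against 21737 to 22589 in the others. Counts of long noncoding RNA genes (lncRNAs) took 0.584% and 0.605% of the total against 0.992% to 1.22%. Ribosomal protein genes took 4.42% and 4.74%, against 4.83% in Vehicle replicate 5 and 2.29% to 3.14% in the other 9. The labels of both libraries were in order for treatment: SEC14L2, a lipid transfer gene raised by DHT in the other replicates, stood at 6.75 CPM in Vehicle replicate 2 (other Vehicle libraries 6.42 to 9.83) and at 375 CPM in DHT replicate 2 (other DHT libraries 274 to 397).

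**Figure D1:**
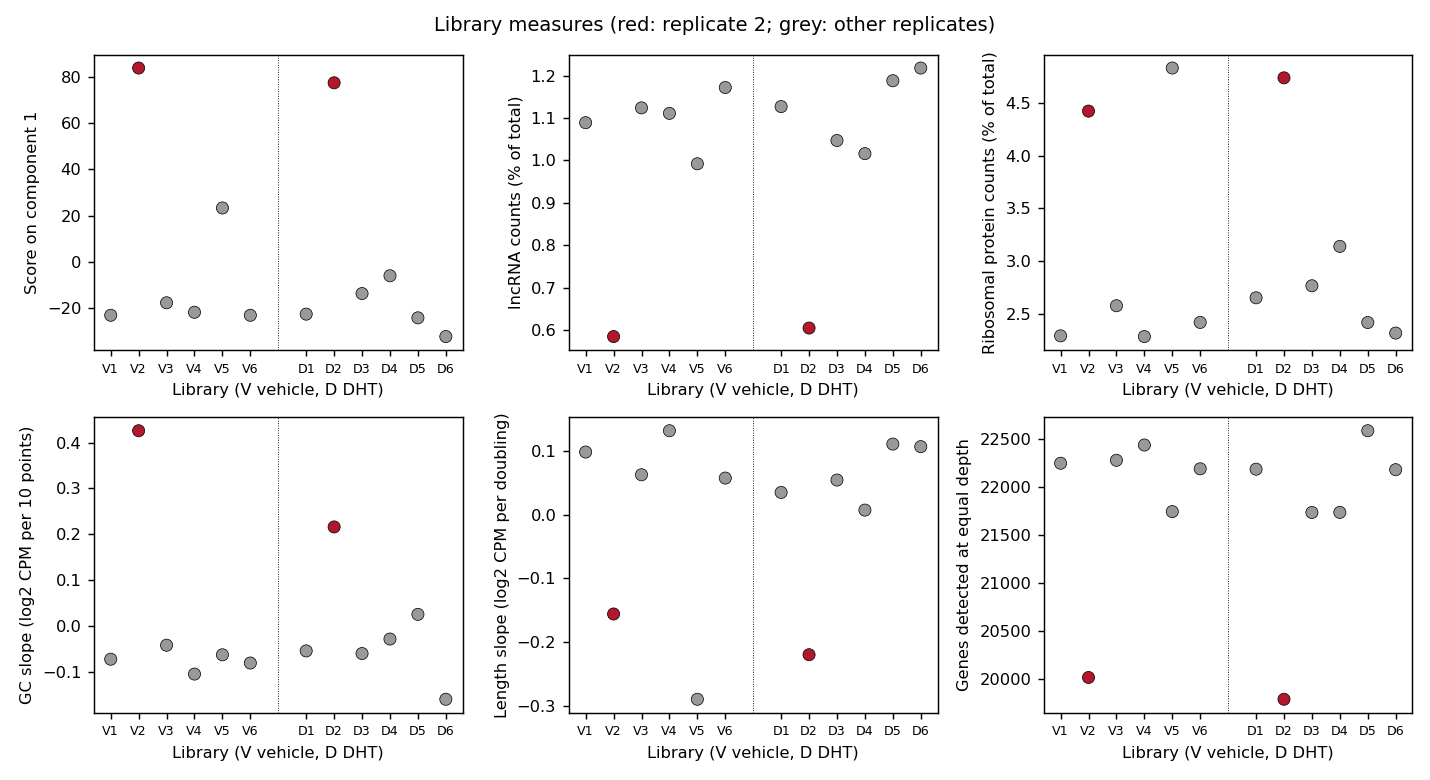
Measures per library: the score on component 1, the share of lncRNA and ribosomal protein counts, the slope of log2 CPM on GC content and on transcript length, and genes detected at equal depth, with replicate 2 in red. Replicate 2 stands alone on component 1 (83.8 and 77.4), lncRNA share, GC slope and genes detected, and shares its high ribosomal protein share and negative length slope with Vehicle replicate 5.

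A gene was counted as set apart when each replicate 2 library was at least 2-fold from the mean log2 CPM of the 5 other libraries of its treatment, in the same direction and outside their range. By this rule 938 of 16355 genes were higher (5.74%) and 1125 were lower (6.88%) in both treatments. These counts follow from how replicate 2 was chosen and nothing is read from them. The split depends on scaling: 45.5% of the set-apart genes were higher after TMM scaling, and 13.4% when libraries were scaled by their totals alone, which moved the median log2 fold change of all genes from -0.02 to -0.35. With upper quartile scaling the share was 34.8% and the median -0.12. All fold changes below are after TMM and are relative to that median. Of all tested genes, 84.8% deviated in the same direction in the vehicle and the DHT library.

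**Figure D2:**
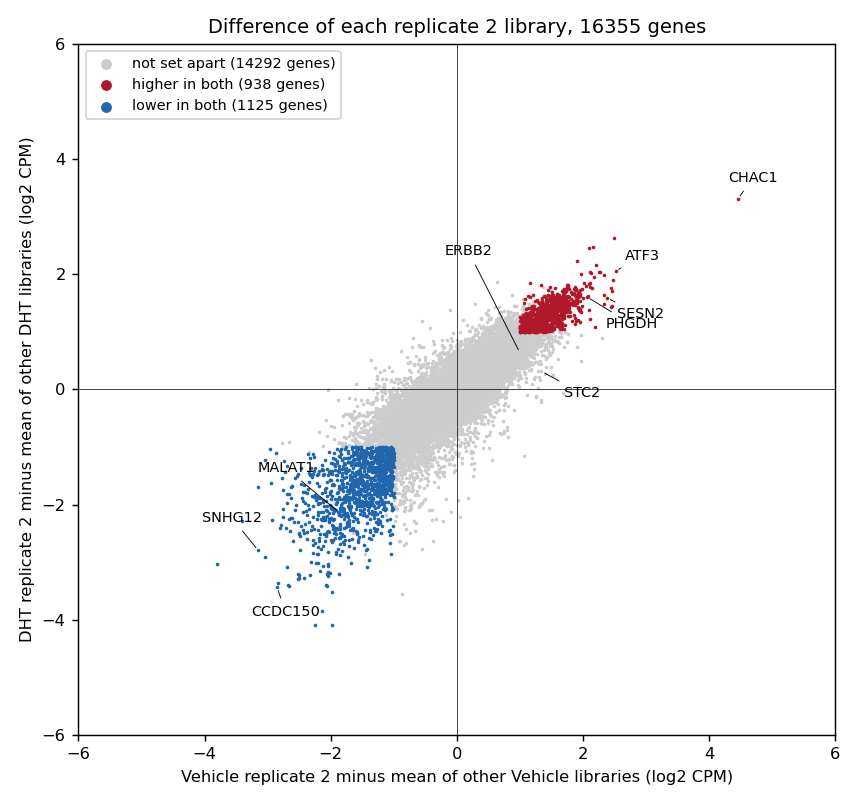
Difference of each replicate 2 library from the mean of the 5 other libraries of its treatment, in log2 CPM, for 16355 genes (x, vehicle; y, DHT), with the genes set apart as higher in red (938) and as lower in blue (1125). CHAC1 lies alone at the upper right, and STC2 lies below the diagonal, with a larger difference in vehicle than in DHT.

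CHAC1 had the highest fitted log2 fold change of replicate 2 over the others of all genes. It encodes an enzyme that degrades glutathione and is a target of ATF4, and its gene lies at chr15:40952962-40956512 on the plus strand of GRCh38. CHAC1 was at 146 CPM in Vehicle replicate 2 and at 7.01, 7.43, 4.50, 9.27 and 5.34 CPM in Vehicle replicates 1, 3, 4, 5 and 6. It was at 122 CPM in DHT replicate 2 and at 12.8, 13.8, 11.1, 14.8 and 9.33 CPM in DHT replicates 1, 3, 4, 5 and 6. The groups did not overlap in either treatment, and the log2 fold change was 3.91 (SE 0.21). Vehicle replicate 5, the next library on component 1, was at 9.27 CPM. This is the CHAC1 whose promoter window, shown above, holds a CARE match.

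Among the regulators of the integrated stress response, 3 of 16 were set apart as higher and 0 as lower, against 5.74% and 6.88% of all genes. Their median log2 fold change was 0.43 against -0.02 for all genes. ATF3, a stress-induced factor of the ATF family, was at 20.3 CPM in Vehicle replicate 2 and 19.4 CPM in DHT replicate 2. It was between 2.29 and 5.13 CPM in the other Vehicle libraries (median 3.51) and between 3.67 and 5.69 CPM in the other DHT libraries (median 4.79), a log2 fold change of 2.32 (SE 0.20). TRIB3, a pseudokinase that feeds back on ATF4, was at 897 and 426 CPM against 207 to 297 and 149 to 226 CPM. The third was NUPR1, a stress-induced chromatin protein, at 701 and 551 CPM against 194 to 346 and 179 to 235 CPM. For each of the 3, both replicate 2 libraries lay above all others of their treatment. ATF4 itself, the central factor, was at 867 and 843 CPM against 356 to 525 and 457 to 510 CPM. Its log2 fold change of 0.89 (SE 0.12) left it outside the range of the others but below the 2-fold threshold. CEBPB, ATF5 and the heme-sensing kinase EIF2AK1 were also above the ranges of the others, at log2 fold changes of 1.31, 0.91 and 0.57. The kinase EIF2AK2 and the factor CEBPG lay below the ranges of the others in both treatments, at -0.63 and -0.37. Of the 16 regulators, 11 had a positive fold change. DDIT3 (CHOP), the factor tied to cell death in prolonged stress, was at 14.6 and 13.3 CPM, inside the 9.07 to 30.1 and 10.4 to 18.2 CPM of the others. The level of DDIT3 is uncertain, since 31.6% of its exonic bases are shared with genes on the other strand and 8.03% on the same strand. PPP1R15A (GADD34), the phosphatase subunit that ends the response, was at 16.2 CPM, just above the 12.2 to 16.0 CPM of the other Vehicle libraries, and at 14.4 CPM, within the 8.14 to 15.8 CPM of the other DHT libraries.

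Among the effectors, 5 of 14 tested were set apart as higher (all genes 5.74%) and 0 as lower (all genes 6.88%), with a median log2 fold change of 0.75. Beside CHAC1 these were DDIT4 and SESN2, inhibitors of mTORC1 signalling, NDRG1, a stress and hypoxia gene, and ADM2, a secreted peptide hormone. DDIT4 was at 720 and 681 CPM against 118 to 190 and 101 to 300 CPM. It shares 41.2% of its exonic bases with genes on the other strand, so its level is uncertain. SESN2 was at 195 CPM in Vehicle replicate 2 and 88.7 CPM in DHT replicate 2, against 31.8 to 45.1 and 26.3 to 33.0 CPM, a log2 fold change of 2.02 (SE 0.14). NDRG1 varied widely among the other libraries, from 21.8 to 141 CPM in vehicle and from 106 to 326 CPM in DHT, and stood at 307 and 578 CPM in replicate 2. HERPUD1, which serves degradation of proteins of the endoplasmic reticulum, was just outside the rule at a log2 fold change of 1.11. The members VEGFA, GDF15 and SCOC had negative fold changes (-0.31, -0.68 and -0.34). GDF15, a secreted stress cytokine, was at 8.08 and 5.69 CPM, within the wide ranges of 2.73 to 24.2 and 1.65 to 19.3 CPM.

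Of 15 genes of amino acid synthesis tested, 3 were set apart as higher (all genes 5.74%) and 1 as lower (all genes 6.88%). A positive fold change was seen in 14 of 15 (median 0.71). PHGDH, the first enzyme of serine synthesis, was at 742 CPM in Vehicle replicate 2 and at 143, 157, 195, 239 and 171 CPM in Vehicle replicates 1, 3, 4, 5 and 6. In DHT replicate 2 it was at 500 CPM against 147 to 191 CPM. The other pair was SHMT2, which makes glycine in mitochondria (log2 fold change 1.40, SE 0.10), and PYCR1, of proline synthesis (1.32, SE 0.12). ASNS, asparagine synthetase, was at 0.89 and 0.91 CPM and within the ranges of 0.37 to 1.07 and 0.61 to 1.60 CPM. These ASNS counts are uncertain, since 44.6% of its exonic bases in GENCODE v29 also belong to another gene on the same strand and the gene has no GC or length value in the deposited table.

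None of 12 amino acid carriers and none of 20 cytosolic tRNA synthetases met the rule in both treatments (all genes 5.74% higher and 6.88% lower). Among the carriers, SLC7A5, the large neutral amino acid carrier, was at 234 CPM in Vehicle replicate 2 against 38.6 to 59.4 CPM, and at 160 CPM in DHT replicate 2 against 67.0 to 101 CPM. It passed 2-fold in vehicle only. Of the synthetases 17 of 20 had positive fold changes (median 0.49), led by AARS1 at 1.06. Of 23 endoplasmic reticulum chaperones and sensors none was set apart, and HSPA5, the main chaperone of that compartment, had a log2 fold change of 0.39 (SE 0.11). In lists of this size none is near the shares of all genes, so nothing is read from these counts. The medians of the regulators, effectors, synthesis genes and synthetases stayed positive under all 4 scalings, while that of the carriers went to -0.01 and that of the chaperones to -0.17 with library totals alone.

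The hypoxia and glycolysis list stood highest by its median of all lists plotted, 1.09. Of its 28 tested members 14 were set apart as higher (all genes 5.74%) and 0 as lower (all genes 6.88%). CA9, a membrane carbonic anhydrase, was at 13.8 CPM in Vehicle replicate 2 and at 0.42, 3.04, 4.28, 8.25 and 1.28 CPM in Vehicle replicates 1, 3, 4, 5 and 6. In DHT replicate 2 it was at 12.7 CPM, against 0.27, 4.04, 4.99, 1.68 and 2.18 CPM in the same order. Replicate 2 was highest in both treatments, although the others spanned more than 10-fold and the SE was 0.60 around a log2 fold change of 2.11. CA9 shares 38.5% of its exonic bases with genes on the other strand, so its level is uncertain. PGK1, a glycolytic kinase whose transcripts have a GC content of 43.6%, was at 2505 and 2524 CPM against 703 to 1081 and 707 to 1146 CPM. Enzymes of nearly every step of glycolysis met the rule: GPI, PFKL, PFKP, ALDOA, ALDOC, TPI1, GAPDH, PGK1, PGAM1, ENO1, PKM and LDHA. LDHA, which makes lactate, was at 2433 and 2924 CPM against 727 to 1455 and 869 to 1813 CPM. PFKP (log2 fold change 1.10) was just inside the rule and HK1 (1.08), a hexokinase, just outside. ALDOA, at 124 and 109 CPM against 25.2 to 45.3 CPM in the others, shares 42.3% of its exonic bases with another gene on the same strand, so its level is uncertain.

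Members of the list that respond to HIF and do not serve glycolysis were less uniform. BNIP3 and BNIP3L, of mitochondrial removal, stood at log2 fold changes of 0.32 and 0.29, and the DHT replicate 2 value of BNIP3 (264 CPM) was inside the 141 to 293 CPM of the other DHT libraries. VEGFA, the vessel growth factor, was at 141 and 165 CPM against 121 to 193 and 202 to 249 CPM, a log2 fold change of -0.31 (SE 0.15). EGLN3, an oxygen sensor, had a log2 fold change of 0.03 and the glucose transporter SLC2A1 of 0.76.

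Of 74 cytosolic ribosomal protein genes, 26 were set apart as higher (all genes 5.74%) and 0 as lower (all genes 6.88%), with a median of 0.88. RPL28 led at 1207 and 1025 CPM in replicate 2. It was at 170, 285, 245, 467 and 240 CPM in Vehicle replicates 1, 3, 4, 5 and 6, and at 196 to 420 CPM in the other DHT libraries. In both treatments replicate 2 was more than 2-fold above the highest other library. Among the other Vehicle libraries, Vehicle replicate 5 was the highest for RPL28. Not all members were high: RPL11 had a log2 fold change of -0.15 and RPS24 of -0.65. Ribosomal protein genes have many processed pseudogenes of near-identical sequence, so reads shared among copies make single values uncertain. In a list of translation factors and related messages written after values were seen, 4 of 18 were higher and 1 lower, among them EEF2, the factor that moves the ribosome, at 5636 and 4423 CPM against 1278 to 1820 and 1403 to 1843 CPM. The lower one, EIF4A1, shares 48.6% of its exonic bases with another gene. Of 42 nuclear-encoded respiratory chain subunits 8 were higher (all genes 5.74%), led by NDUFB7 at 166 and 170 CPM against 42.3 to 121 and 42.3 to 67.4 CPM.

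**Figure D3:**
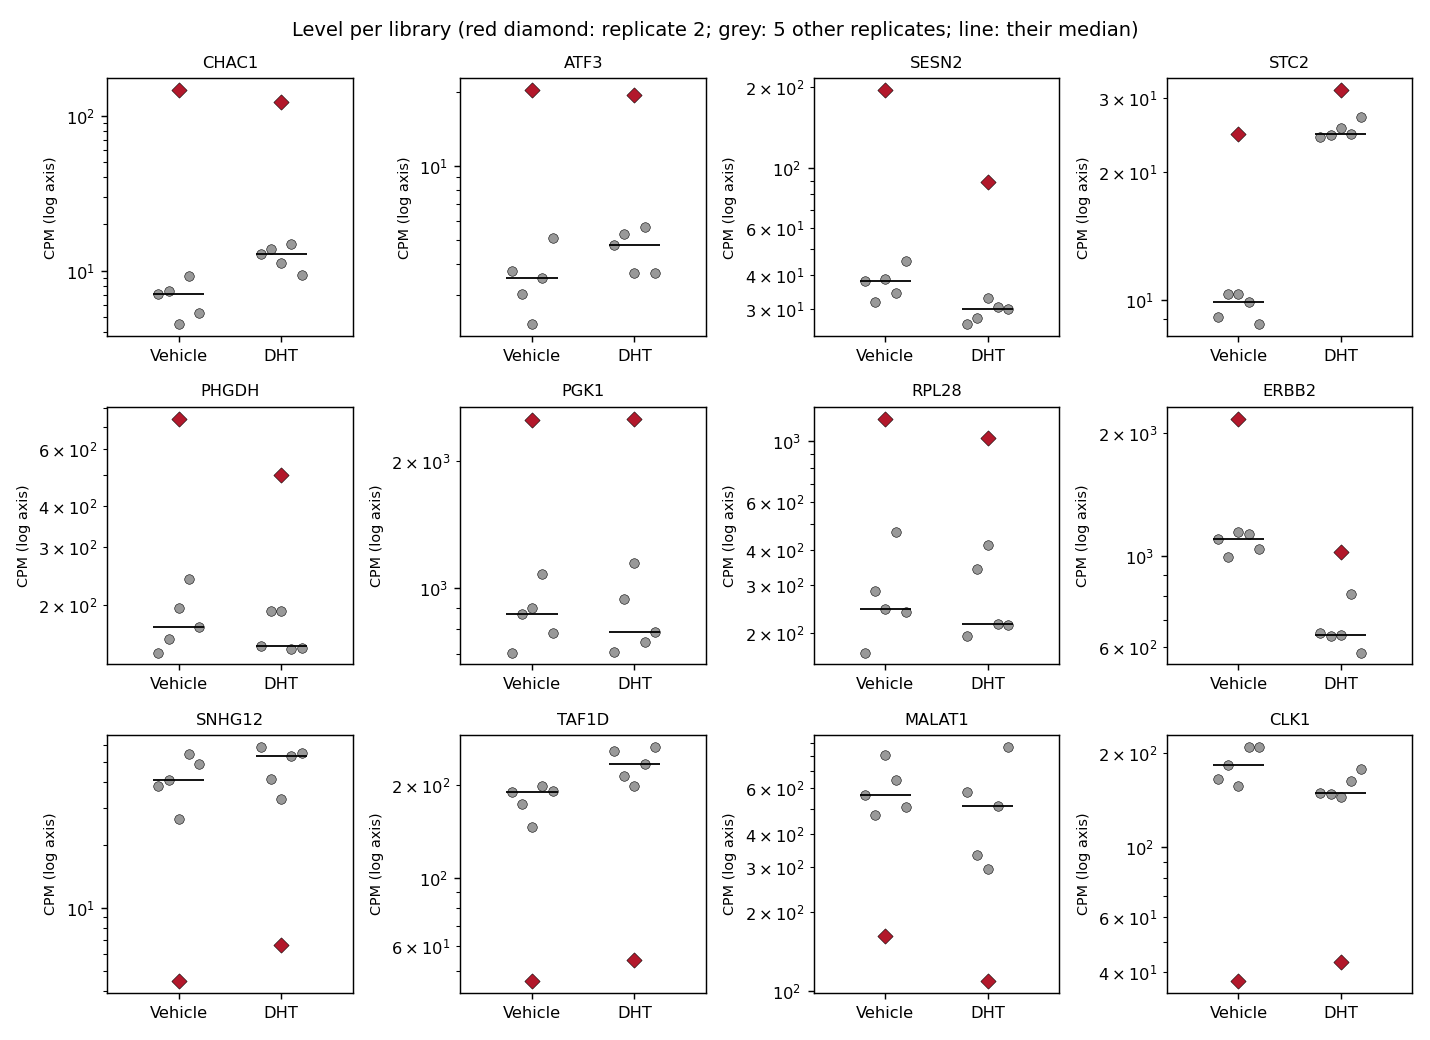
Level in CPM (log axis) of 12 genes in each library, with replicate 2 as red diamonds and the 5 other replicates of each treatment as grey points with their median. CHAC1, ATF3, SESN2, PHGDH, PGK1 and RPL28 lie above and SNHG12, TAF1D, MALAT1 and CLK1 below all other libraries of both treatments, while STC2 and ERBB2 lie above with a narrower gap in DHT.

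The 12 lowest genes with a mean of at least 5 CPM were a mix of coding genes, noncoding host RNAs and pseudogenes. ABCC12, a transporter of the ABC family, was lowest at 1.04 and 0.55 CPM against 3.33 to 9.83 and 5.69 to 20.3 CPM (log2 fold change -3.59, SE 0.71). CCDC150, a coiled-coil gene at chr2:196639554-196763490, was at 2.74 and 1.41 CPM against 18.0 to 26.1 and 12.7 to 20.3 CPM (log2 fold change -3.23, SE 0.24). MIR22HG, the host of a microRNA, was at 0.96 and 1.00 CPM against 6.56 to 11.4 and 4.90 to 12.8 CPM. SNHG12, at chr1:28578538-28583132, carries small nucleolar RNAs in its introns. It was at 4.45 CPM in Vehicle replicate 2 and at 38.2, 40.6, 26.6, 54.6 and 48.7 CPM in Vehicle replicates 1, 3, 4, 5 and 6. In DHT replicate 2 it was at 6.65 CPM against 33.3 to 58.6 CPM, and no library of either treatment came near the replicate 2 values. CDK5RAP3, a coding gene of the ufmylation machinery, was at 5.49 and 3.37 CPM against 21.9 to 37.6 and 26.3 to 51.6 CPM. It shares 30.6% of its exonic bases with genes on the same strand.

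A further 3 lists of RNAs that are processed or kept in the nucleus were written after the lowest genes had been seen, so their direction is no independent evidence. Of 24 hosts of small nucleolar RNAs, 8 were set apart as lower (all genes 6.88%) and 0 as higher (all genes 5.74%), with a median of -0.51. Beside SNHG12 these were SNHG1, SNHG4, TAF1D, SNHG3, SNHG14, GAS5 and SNHG17. TAF1D, a subunit of the polymerase I initiation complex, was at 46.2 and 54.0 CPM against 147 to 199 and 199 to 266 CPM. Others of the same kind were not lower: SNHG29, SNHG7 and ZFAS1 had log2 fold changes of 0.37, 0.29 and 0.28. Of 19 RNAs that stay largely in the nucleus, 11 were lower and 0 higher (median -1.58). NEAT1, the scaffold of paraspeckles, was at 38.9 CPM in Vehicle replicate 2 against 136 to 189 CPM and at 18.8 CPM in DHT replicate 2 against 78.7 to 158 CPM. MALAT1, a nuclear speckle RNA, was at 162 and 109 CPM against 473 to 803 and 295 to 865 CPM. CLK1, a kinase of splicing factors whose transcript is held back with introns in it, was at 37.4 and 43.0 CPM against 157 to 209 and 144 to 178 CPM. Of 21 splicing factors of the SR family and its partners, 6 were lower and 0 higher (median -0.68), SRSF5 the lowest at -1.73 (SE 0.17), while SRSF3 and SRSF9 were at 0.00 and 0.49.

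Some classes of genes also differed from all genes, of which 5.74% were higher and 6.88% lower. Of 1316 lncRNA genes tested, 24.8% were lower and 0.988% higher, with a median log2 fold change of -0.62. Unprocessed pseudogenes were lower in 16.2% of 420 cases, and processed pseudogenes, which are copies of spliced messages, higher in 12.9% of 2494. Coding genes with less than 5 kb of introns were higher in 16.3% of 1371 cases, and those with over 100 kb of introns in 0.853% of 1994. Zinc finger genes were lower in 11.5% of 409 cases. Other classes were near the shares of all genes. Of 833 coding genes with at least 50% retained-intron transcripts in the annotation, 6.6% were higher and 6.72% lower. Of 5202 coding genes with some transcript annotated for nonsense-mediated decay, 4.17% were higher and 5.81% lower. In bulk RNA, fewer cells with a transcript and less of it per cell cannot be told apart.

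Replicate 2 also differed from the others by base composition and length. The deposited table gives each gene's GC content and average transcript length. Log2 CPM climbed with GC content by 0.43 per 10 percentage points in Vehicle replicate 2 and by 0.22 in DHT replicate 2, relative to the mean of all libraries in a fit with GC content and length together, against -0.16 to 0.03 in the other 10. Per doubling of transcript length the slope was -0.16 and -0.22, against -0.29 in Vehicle replicate 5 and 0.01 to 0.13 in the other 9. GC content accounted for 19.7% and length for 10.3% of the variance of the replicate 2 fold changes over 14559 genes, and both together for 26.6%. In 10 bins of equal size by GC content, the median log2 fold change went from -0.57 in the poorest to 0.61 in the richest. In the poorest bin 0.0687% of genes were set apart as higher, and in the richest 20.5%. From the bin of the shortest to that of the longest transcripts it went from 0.42 to -0.34. The very long coding transcripts listed as a check on length had a median of -0.72, with 2 of 21 lower (all genes 6.88%).

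**Figure D4:**
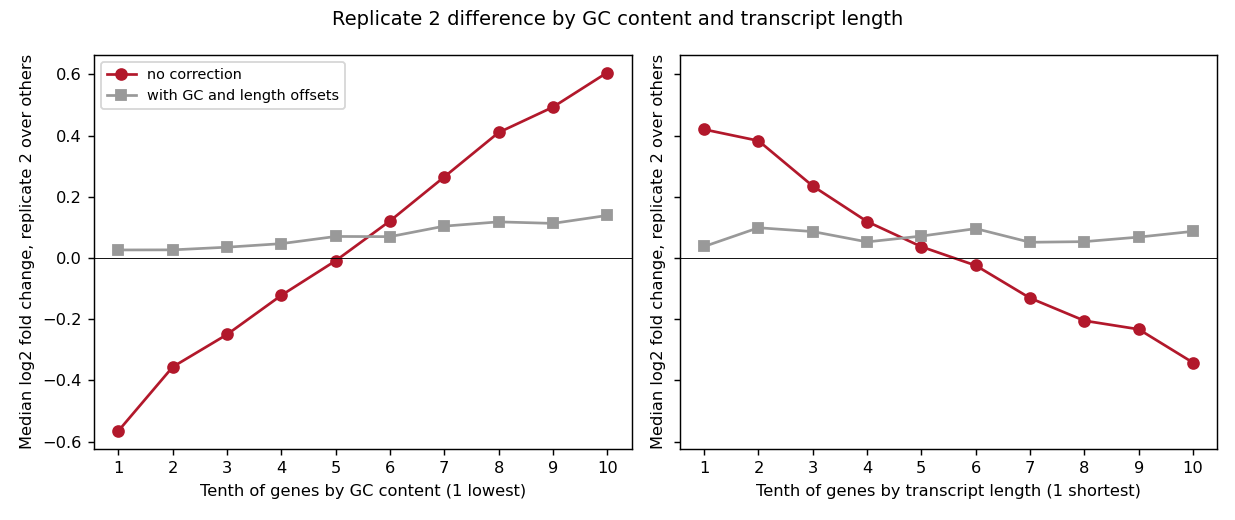
Median log2 fold change of replicate 2 over the others in 10 equal bins of genes by GC content (left) and transcript length (right), without correction (red) and with GC and length offsets per library (grey). Without correction the medians go from -0.57 to 0.61 with GC content and from 0.42 to -0.34 with length, and with offsets they lie between 0.03 and 0.14.

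With offsets for GC content and length fitted per library, 266 of 14559 genes were higher (1.83%) and 709 lower (4.87%). Of 881 genes set apart as higher that had a GC value, 179 met the rule with offsets, and of 874 lower genes 535 did. Offsets take away whatever varies smoothly with GC content and length, whether it arose in the library or in the cells, and the 2 cannot be told apart here. The regulators of the integrated stress response went from 3 to 2 of 16, since TRIB3 no longer met the rule (1.17 with offsets). Their median was 0.50 with offsets. ATF4 and ATF5 went to 0.54 and 0.33, and EIF2AK2 and CEBPG to -0.02 and 0.16. The effectors kept 5 of 14 with a median that went from 0.75 to 0.95, and CHAC1 stood at 3.37 with offsets. Hypoxia and glycolysis kept a median of 0.89 with 10 of 28 members higher, PGK1 at 1.82 among them. Amino acid synthesis had a median of 0.77, with PHGDH alone meeting the rule at 1.54, and SHMT2 and PYCR1 below it. Of the 20 synthetases 2 met the rule as higher with offsets, AARS1 among them at 1.05. Ribosomal proteins went to 13 of 74 and a median of 0.62, and respiratory chain subunits to 1 of 42 and 0.33. Of the 71 named genes that were set apart, 27 did not meet the rule with offsets, NDUFB7, KRT19, SPDEF, HLA-C, IFI44 and IFIT2 among them. On the lower side lncRNA genes stayed at 21.1% lower and snoRNA hosts at 7 of 24, with SNHG12 at -3.23 and NEAT1 at -1.93. The share of coding genes with short introns that were higher went from 16.3% to 3.54%, and that of zinc finger genes that were lower from 11.5% to 3.27%. Medians by chromosome, from -0.24 on chromosome 13 to 0.32 on the GC-rich chromosome 19, narrowed to between 0.02 and 0.14.

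**Figure D5:**
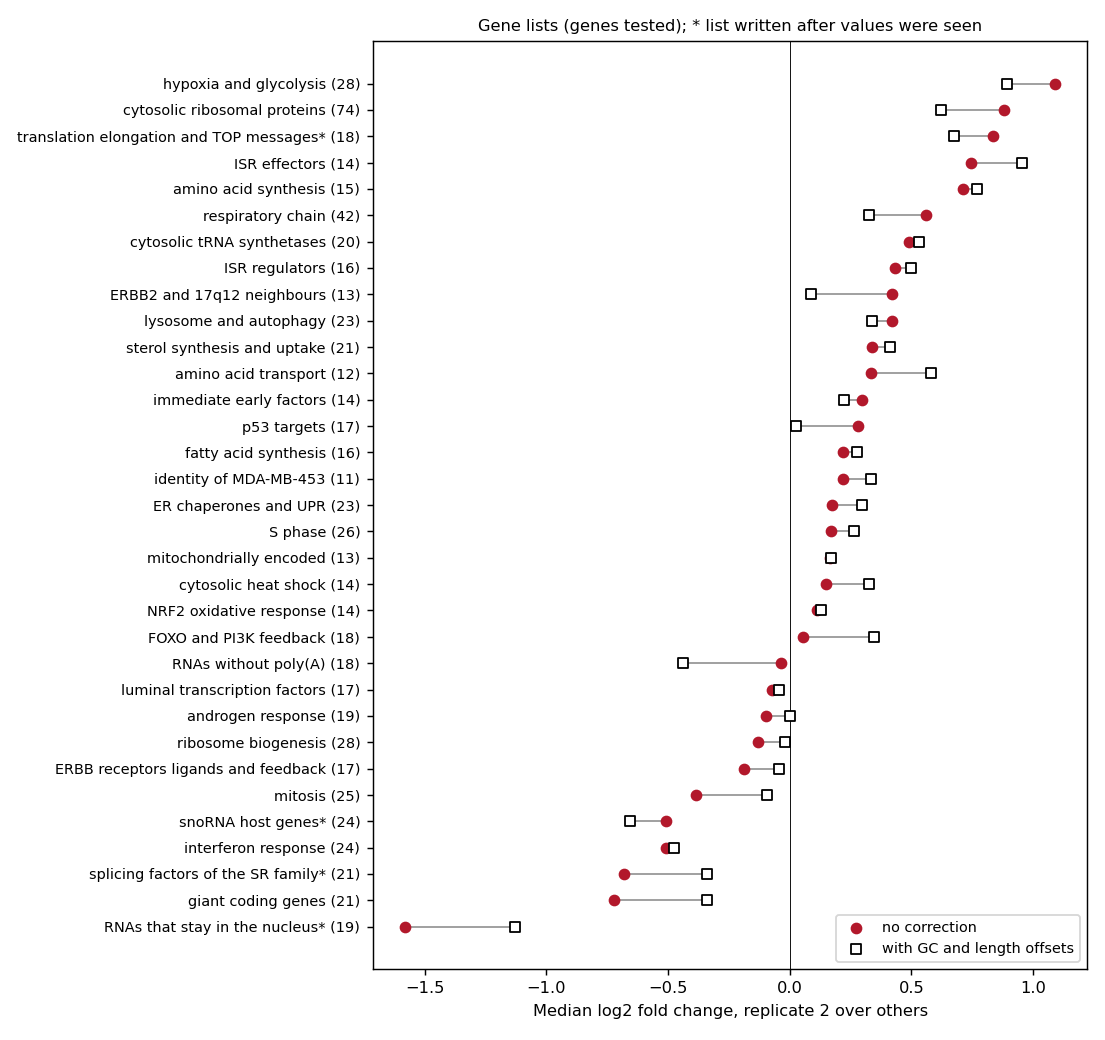
Median log2 fold change of replicate 2 over the others for 33 gene lists with at least 10 tested genes, without correction (red circles) and with GC and length offsets (open squares). Hypoxia and glycolysis (1.09 and 0.89) stays at the upper end, and RNAs that stay in the nucleus (-1.58 and -1.13) stay at the lower end. The list of ERBB2 and its 17q12 neighbours (0.42 and 0.09) moves towards 0.

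ERBB2, a growth factor receptor of the EGFR family, was at 2165 CPM in Vehicle replicate 2 and at 1098, 996, 1144, 1135 and 1040 CPM in Vehicle replicates 1, 3, 4, 5 and 6. In DHT replicate 2 it was at 1024 CPM, against 650, 640, 642, 810 and 581 CPM in the same order. Replicate 2 was above all others in both treatments, with a log2 fold change of 0.82 (SE 0.13) that fell short of the 2-fold rule and was 0.58 with offsets. Of 13 tested genes in the list of ERBB2 and its 17q12 neighbours, ERBB2 included, 0 were higher (all genes 5.74%) and 1 was lower (all genes 6.88%). These counts are near the shares of all genes and nothing is read from them. The median of 0.42 became 0.09 with offsets. GRB7, an adaptor that lies next to ERBB2, went from 0.58 to 0.10, and PSMD3, a proteasome subunit, from 0.90 to 0.70. The lower gene was GSDMB, a gasdermin, at 2.37 and 1.64 CPM against 9.71 to 13.1 and 8.41 to 12.5 CPM.

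Luminal transcription factors were set apart as higher in 1 of 17 cases (all genes 5.74%) and as lower in 0 (all genes 6.88%). These counts are near the shares of all genes and nothing is read from them. The higher one was SPDEF, at 1128 and 717 CPM against 378 to 514 and 305 to 406 CPM, a log2 fold change of 1.22 that was 0.82 with offsets. TFAP2B, a luminal factor of this line, was at 554 and 466 CPM against 457 to 626 and 512 to 624 CPM, and the log2 fold changes of FOXA1 and GATA3 were 0.09 and 0.20. Summed over 13 identity genes, replicate 2 stood at 9710 and 6920 CPM against 4770 to 5830 and 3590 to 4320 CPM. KRT19 and KRT8 were among 4 of 11 tested identity genes set apart as higher (all genes 5.74%), at log2 fold changes of 1.48 and 1.36. With offsets 1 of 11 met the rule (all genes 1.83%), and KRT19 was at 0.80. CDH1, also an identity gene, lay below all others of both treatments, at 26.5 and 17.9 CPM against 31.8 to 51.9 and 37.6 to 49.9 CPM. Leukocyte markers were at or near 0, with a sum of at most 0.854 CPM in any library and 3 of 9 at 0 in all. Endothelial markers summed to at most 3.24 CPM. Fibroblast markers summed to 111 and 76.2 CPM against 77.1 to 103 and 60.0 to 73.0 CPM, and basal markers to 112 and 62.0 CPM against 53.8 to 85.5 and 40.0 to 58.1 CPM. Single genes made up most of these sums: COL1A1 was at 106 and 71.5 CPM in replicate 2 and ITGB4 at 96.5 and 55.4 CPM. Others differed the other way, with MYLK at 1.63 and 0.82 CPM and OXTR at 0.89 and 1.14 CPM, below all other libraries of their treatment. The part of these markers in the differences was not tested.

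In lists of other programmes the shares of set-apart genes are to be read against 5.74% higher and 6.88% lower among all genes, and nothing is read from 1 to 3 genes per list. Of 25 genes of mitosis 2 were lower (median -0.39, with offsets -0.09), CENPE, the kinetochore motor, among them at 16.6 and 15.6 CPM against 87.5 to 109 and 54.7 to 88.9 CPM. Of 26 genes of S phase 2 were higher and 1 lower. Of 24 interferon-response genes 2 were higher, HLA-C of antigen presentation among them, and 3 lower, IFI44, IFIT2 and IRF9. IFI44, an interferon-induced gene, was at 0.59 and 0.32 CPM in replicate 2, but ranged from 0.71 to 15.8 and from 0.57 to 11.2 CPM in the others, so the lowest of those came close. Of 19 androgen-response genes 1, NDRG1, was set apart. For 83.6% of the higher genes and 57.0% of the lower ones the nearest other Vehicle library was Vehicle replicate 5, and for 70.6% and 41.1% the nearest DHT library was DHT replicate 4. The same shares over all genes were not computed. Vehicle replicate 5 had 1309 genes at least 2-fold higher and 423 lower than the rest of its treatment without replicate 2. The other Vehicle libraries had at most 76 and 257, so no likeness to replicate 2 is read from these shares.

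The response to DHT could be tested without replicate 2. In the 10 other libraries DHT raised 608 of 16452 genes (3.7%) and lowered 312 (1.9%) by edgeR's quasi-likelihood test with Benjamini-Hochberg adjustment. With 1 library left out at a time the counts ran from 419 to 1096 and from 173 to 673, both highest without Vehicle replicate 5. STC2, a secreted glycoprotein that is also a target of ATF4, rose from 8.76 to 10.3 CPM in vehicle to 24.3 to 27.0 CPM in DHT, with no overlap (log2 fold change 1.37, SE 0.09, edgeR adjusted p = 2.66e-06). CHAC1 rose by 0.87 on the log2 scale (SE 0.19, edgeR adjusted p = 0.0166), a call that depended on DHT replicate 3: without it the adjusted p was 0.0512. ERBB2 fell by 0.70 (SE 0.10, edgeR adjusted p = 0.00154), as did its neighbour GRB7 by 0.67 (edgeR adjusted p = 0.00295). DDIT3 and ASNS did not pass (edgeR adjusted p = 0.593 and 0.613). Of 19 androgen-response genes tested 12 were raised and 0 lowered, and of 28 genes of ribosome biogenesis 17 were raised and 0 lowered. Among the stress lists, DHT raised 1 of 16 regulators, 2 of 14 effectors, 4 of 15 synthesis genes and 3 of 12 carriers, and lowered none of them. It raised 2 and lowered 1 of the 28 hypoxia and glycolysis genes and called none of the 74 ribosomal proteins.

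Whether the DHT response itself differed in replicate 2 was tested as an interaction in edgeR, with 1 library per treatment in replicate 2 and the spread taken from the others. No gene of 16355 passed (0%), with a smallest adjusted p of 0.998. At an unadjusted p under 0.05 there were 533 of 16355 genes, fewer than that threshold flags by chance alone, so nothing is read from them. DESeq2 also called 0. In simulated data this test recovered 0% of genes with a 2-fold and 86.5% of those with a 4-fold difference of response, so differences of 2-fold were not detectable with 2 libraries. STC2 had the smallest unadjusted p: its DHT response differed by -1.03 in log2 units in replicate 2 (SE 0.21; edgeR gave an adjusted p of 0.998). It was at 24.7 CPM in Vehicle replicate 2, where the other Vehicle libraries had 9.11, 10.3, 10.3, 9.86 and 8.76 CPM. It was at 31.3 CPM in DHT replicate 2, where the other DHT libraries had 24.3, 24.4, 25.4, 24.6 and 27.0 CPM. The vehicle library of replicate 2 was thus at the level of the DHT-treated others. SLC7A5 and SLC6A9, a pair of amino acid carriers singled out after values were seen, differed by -1.41 (SE 0.34) and -0.86 (SE 0.22), also with an adjusted p of 0.998 in edgeR. CYP4F8, a cytochrome P450 gene singled out in the same way, went from 0.22 to 7.93 CPM in replicate 2, while in the others DHT raised it from 0.22 to 0.99 CPM up to 44.9 to 68.4 CPM (log2 fold change 6.93, SE 0.27, edgeR adjusted p = 1.56e-08). Its interaction did not pass (-1.84, SE 1.20, edgeR adjusted p = 0.998).

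All of the above rests on 2 libraries that share a replicate number. The labels used here do not say whether culture, RNA preparation or library batch went with that number. The parts of passage, culture, RNA preparation and library cannot be told apart. The labels describe consecutive passages and no separate thaws, so p-values measure the spread between these samples. Of the 5 genes given as markers of replicate 2, CHAC1 alone met the 2-fold rule in both treatments, ERBB2 and STC2 lay above the range of the others in both, and DDIT3 and ASNS lay within it.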

How the data were processed

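RNA-seq of MDA-MB-453 cells gave 12 libraries, 6 per treatment, read as single 40 bp reads. The design text names poly-A RNA and the extract protocol a total RNA kit, so the RNA class is not settled. The authors deposited estimated counts for each gene. Per the submitters' processing notes the tools were STAR and featureCounts and the build GRCh38, with versions not given in the sources used here. From 39.6% to 46.7% of the nonzero values per library were not whole and all were rounded. A further deposited table gives the GC content in percent and the average transcript length of 14559 of the 16355 genes tested, per the file headers. A gene record broken over 3 lines was left out, which left 60670 genes.

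Genes were filtered with filterByExpr in edgeR 4.0.16 (R 4.3.3), scaled by TMM and fitted with its quasi-likelihood model. Differences per library used log2 CPM with a prior count of 2. Offsets were natural splines with 5 degrees of freedom in GC content and in log2 length, fitted per library. The response to DHT was tested in the 10 other libraries and the interaction with replicate 2 in all 12 (8 residual degrees of freedom), both with an adjusted p threshold of 0.05. Libraries held 4345939 to 25678380 counts. On simulated data set apart at 2-fold and 4-fold, the rule found 28% and 100% of the genes, and the DHT test 93.5% and 100%. Alternatives covered scaling, filters, offsets, thinning, the fold threshold, DESeq2 1.42.0, the replicate block and leaving out libraries.

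The genes named are the 5 markers, the 12 highest and 12 lowest set-apart genes with a mean of at least 5 CPM, up to 3 set-apart genes each way per list, TFAP2B, FOXA1, GATA3 and the neighbours of ERBB2, 90 in all with a few that are not reported here. Other names were chosen after values were seen. Members and lists were chosen with earlier results of these data known, and 4 lists were written after values were seen. Exon overlaps are from GENCODE v29, either strand, since no strand setting of the counting is given. Beside the genes marked above, large shares were seen for IRF9 (48.4%) and CTSD (41.7%) on the same strand. On the other strand they were seen for NDUFS7 (49.1%) and SRSF9 (46.2%), so these levels are uncertain as well.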

Additional observations from a re-analysis of the deposited data

Results flagged for a closer look

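In each treatment the 5 libraries other than replicate 2 were checked for a library far from its neighbours, by the gap to the nearest value over the whole range, with 0.71 as the critical value. Replicate 2 was not entered, since it had been chosen as apart. Of 196 sets of values checked, 22 were past it, where chance flags about 1 in 20. Vehicle replicate 5 accounts for most of them.

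For Vehicle replicate 5 the ratios were 0.884 for component 1, 0.74 for component 2, 0.885 for the share of ribosomal protein counts (4.83%, next 2.58%) and 0.824 for the length slope (-0.29, next 0.06). Its level was highest for KRT19 (0.938), CTSD (0.893), FTL (0.882), NDUFA13 (0.85), JUND (0.847), NDUFB7 (0.821), MIEN1 (0.784), CNFN (0.777), ATP6V0D1 (0.738), SPDEF (0.719), NDUFS7 (0.712) and SHMT2 (0.711). KRT19 was at 1697 CPM there and at most 1006 CPM in the rest, and CTSD at 217 CPM against at most 89.2 CPM. Its level was lowest for TFAP2B (0.801; 457 CPM, next 592 CPM) and VPS13A (0.768; 28.8 CPM, next 45.4 CPM). The genes checked were those named, most of which had been named for being set apart in replicate 2, so no likeness of the libraries is read from these genes.

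The remaining ratios belong to other libraries. Total counts were lowest in Vehicle replicate 6 (0.781; 4345939 counts). PYCR1 was lowest in Vehicle replicate 4 (0.874; 129 CPM, next 160 CPM). ALDOA was highest in DHT replicate 4 (0.791; 45.3 CPM, next 32.8 CPM). IFI44 was highest in DHT replicate 1 (0.714; 11.2 CPM, next 3.61 CPM).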

How the results depend on the processing

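Of the 71 named genes that were set apart, 27 did not meet the rule with GC and length offsets. No fold change of these 71 turned its sign in the 1627 values that could be computed under other settings, but they had been chosen for their direction in both treatments. Genes set apart as higher and lower numbered 313 and 2028 with library totals alone, 625 and 576 with a mean of at least 5 CPM, 266 and 709 with GC and length offsets, 2369 and 2404 at 1.5-fold and 77 and 337 at 3-fold. Without Vehicle replicates 5 and 6 they numbered 1188 and 1285. With GC offsets alone 400 were higher, with length offsets alone 613 were higher, and with all libraries thinned to the smallest total 704 were lower; the last follows from fewer counts per gene. Leaving out 1 library at a time gave 831 to 1573 higher and 1105 to 1822 lower, with the top of both ranges where 1 replicate 2 library stood alone (1573 without DHT replicate 2, 1822 without Vehicle replicate 2). The offsets for 1 property alone and the fit without Vehicle replicates 5 and 6 were chosen after seeing the data.

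Genes raised by DHT in the other libraries numbered 419 to 1096 and genes lowered 173 to 673 with 1 library left out, 1096 and 673 without Vehicle replicate 5 and 173 without DHT replicate 1. DESeq2 gave 498 lowered genes and GC and length offsets 548; the cause was not tested. With the replicate number as a block 535 were raised and 253 lowered, with the block and offsets 606 were lowered, and the interaction gave 0 with the block, with DESeq2 and with each library left out. The deviations of same-numbered libraries from their treatment mean correlated at 0.51, 0.87, 0.44, 0.26, -0.24 and 0.46 for replicates 1 to 6. In 3 of 6 the libraries correlated best with their own number. The means included replicate 2, whose large difference enters every deviation, so these values cannot decide whether same-numbered libraries pair. The numbers were not treated as pairs in the main fits, and the replicate block was run as an alternative. With 2 libraries in replicate 2, the interaction test found 0% of simulated 2-fold differences and 86.5% of 4-fold ones.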
